A study of Homo sapiens with 6 samples.

Results

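The 8 genes SREBF2, SCAP, INSIG1, HMGCS1, IDI1, FDFT1, SQLE and DHCR7 carry cholesterol synthesis and its control, and their mRNAs were examined for crosslinked sites of IGF2BP3, an RNA-binding protein of the IGF2BP family. The genes were named by their function, with earlier results of these data known. A cluster was counted for a gene when 1 nt or more of it lay in one of the gene's GENCODE release 44 exons, strand for strand. These were 114 of the 244645 clusters of the series, with 1335 reads, and the 8 genes stand among 9353 protein-coding genes with a cluster in any library. SREBF2 had the most cluster reads of the 8 mRNAs, 470 of 818 member reads in the deepest library, and most of its reads there lay in the coding sequence.

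All libraries came from HCT116, a human colorectal carcinoma line, conditionally expressing Tet-OsTIR1, a doxycycline-controlled component of the auxin degron system that the IgG control carried too. Cells were fed 100 µM 4-thiouridine for 15 h and irradiated at 365 nm. Reverse transcription pairs crosslinked 4-thiouridine with G, so T-to-C conversions in the reads mark contact with the protein. The 5 IGF2BP3 precipitates differed in the nuclease, named here with its U/µL in lysate/on beads: RNase I 0.05/0.05, RNase I 0.1/0.025, RNase I 0.05/0.025, RNase T1 1/1 and RNase T1 0.25/0.25. The IgG control had RNase I 0.1/0.025. Values of several libraries are given in this order. Each of the 6 conditions is 1 library, so no test between conditions was possible, and every interval given is a 95% interval for counting error only. The RNA of RNase I 0.05/0.05 and RNase T1 1/1 was electroeluted and that of the other IGF2BP3 libraries came from crushed gel, so gel extraction and RNase concentration cannot be told apart between these 2 sets of libraries. For RNase I 0.1/0.025 the label, the paper's results and its RNase treatment methods give 0.1 U/µL in lysate. A later methods passage on gel extraction prints a lower value, and the label is used here. By the methods, the polyclonal antibody also recognises IGF2BP2 in part, and sites of the 2 paralogs cannot be told apart here.

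Cholesterol synthesis is controlled by feedback. SREBF2 encodes the transcription factor precursor SREBP2, which SCAP escorts from the endoplasmic reticulum to the Golgi for cleavage when sterols are low, whereas INSIG1 retains SCAP in the endoplasmic reticulum when sterols are high. The cleaved factor activates genes of the pathway. HMGCS1 makes HMG-CoA and IDI1 isomerises isopentenyl diphosphate. FDFT1 makes squalene, SQLE oxidises it in a rate-limiting step, and DHCR7 performs the last reduction to cholesterol.

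The sequences under the strongest shared sites are shown because they allow the cut and crosslink positions of the enzymes to be compared. Each is the 30 nt of GRCh38 around the mode of a cluster, the position that the cluster caller scored highest, written 5′ to 3′ as DNA. Where the mode lies at or near the edge of a cluster the window reaches beyond it. Capitals mark CATT with its variants CATA and also CATC, as well as CAGT and GGAC, each searched on the sense strand only. In SREBF2, on chromosome 22, one site lay in exon 2 and one in the 3′UTR, and each is given from the strongest RNase I cluster and the strongest RNase T1 cluster. Only the RNase I window of the coding site and the RNase T1 window of the 3′UTR site held a marked tetramer. The RNase T1 cluster of the 3′UTR site, chr22:41906009-41906045, began at the last base of that CAGT. The RNase I 0.05/0.05 cluster, chr22:41905941-41906151, spanned all of it. The windows shown thus do not separate the enzymes at this CAGT.
SREBF2 coding sequence, RNase I 0.05/0.05, chr22:41866985-41867014: cggagctgtGGACccttCAGTgcaacggtc
SREBF2 coding sequence, RNase T1 1/1, chr22:41867068-41867097: ctccaactctgcaagtcaaggtttctccca
SREBF2 3′UTR, RNase I 0.05/0.05, chr22:41905926-41905955: gctcccaagctgccaagcccctgcctccag
SREBF2 3′UTR, RNase T1 1/1, chr22:41905999-41906028: gcttcctCAGTttttatcaggctttctctg

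The corresponding windows of INSIG1 on chromosome 7, IDI1 on chromosome 10, HMGCS1 on chromosome 5, SCAP on chromosome 3 and DHCR7 on chromosome 11 are those of the strongest shared site of each gene. INSIG1, HMGCS1, IDI1 and DHCR7 have their window in the 3′UTR, and SCAP has it in the coding sequence. The RNase T1 windows of INSIG1 and IDI1 held CATT, and the RNase I window of HMGCS1 held GGAC. The IDI1 window also lay wholly within an RNase I 0.05/0.05 cluster, chr10:1041038-1041098. The GGAC of HMGCS1 lay beyond the edge of the cluster whose mode was used, chr5:43290017-43290074. It lay within the RNase I 0.05/0.025 cluster chr5:43289983-43290048.
INSIG1, RNase I 0.1/0.025, chr7:155309511-155309540: ttttacttataaatttacctttttgtattt
INSIG1, RNase T1 1/1, chr7:155309499-155309528: gggtttggtCATTtttacttataaatttac
IDI1, RNase T1 1/1, chr10:1041061-1041090: aatttagttctatCATTtggtactatCATT
HMGCS1, RNase I 0.05/0.05, chr5:43290003-43290032: ttccacttcaaggtctgaagtaGGACtttt
SCAP, RNase I 0.05/0.05, chr3:47420964-47420993: gacttcttccttcagatgctgtttttcacc
DHCR7, RNase I 0.05/0.05, chr11:71435240-71435269: tctgtaaactggagagagcccagcacttgg

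Levels are given as reads and as CPM, counts per 1000000 cluster reads, taken over all clusters of the library. The cluster reads summed to 2362467, 803490, 670712, 1157194 and 182448 in the 5 IGF2BP3 libraries and to 324 in the IgG library. The 8 genes held 818, 162, 79, 267 and 9 of the IGF2BP3 reads. None of the 25 IgG clusters lay on an exon of the 8 genes. All 8 genes had a cluster in RNase I 0.05/0.05 and in RNase T1 1/1, and 7, 5 and 1 genes had one in RNase I 0.1/0.025, RNase I 0.05/0.025 and RNase T1 0.25/0.25. Only called clusters are listed, so a gene at 0 has no called cluster and no level is bounded by it. Cluster reads combine the amount of an mRNA with its occupancy, which cannot be told apart without the input RNA.

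**Figure D1:**
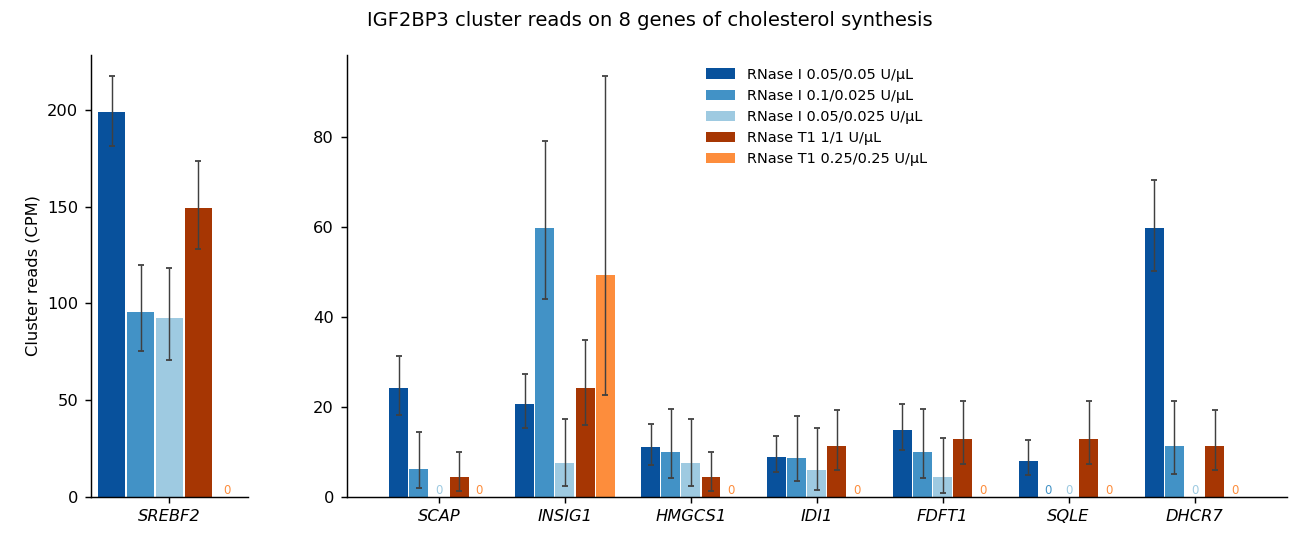
Cluster reads of the 8 genes in the 5 IGF2BP3 libraries in CPM, with SREBF2 on its own axis, error bars for the exact 95% Poisson interval of the reads and 0 where no cluster was called. SREBF2 reached 199 CPM with RNase I 0.05/0.05, and DHCR7 stood out from its other libraries only there, at 59.7 CPM.

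Against all protein-coding genes with a cluster, most of the 8 mRNAs had few reads. The median member had 42 reads with RNase I 0.05/0.05, where the median gene had 76. With RNase T1 1/1 these medians were 14 and 46 reads, with RNase I 0.1/0.025 they were 8 and 38, and with RNase I 0.05/0.025 they were 5 and 33. SREBF2 and DHCR7 exceeded the median gene with RNase I 0.05/0.05, SREBF2 and INSIG1 with RNase I 0.1/0.025, and SREBF2 alone with RNase I 0.05/0.025 and with RNase T1 1/1. The same number of members exceeded the median when levels were divided by mRNA length.

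A gene counted as a target, following the methods, when at least 1 cluster had more than 10 CPM and more than 0.5 conversion events per read. With RNase I 0.05/0.05, 2 of 8 members, SREBF2 and DHCR7, met these criteria, where 50.1% of all protein-coding genes with a cluster did. With RNase I 0.1/0.025 these were SREBF2 and INSIG1 of 7 members, beside 66.5% of genes, and with RNase I 0.05/0.025 only SREBF2 of 5, beside 72.6%. With RNase T1 1/1 they were SREBF2 and FDFT1 of 8, beside 52.2%, and with RNase T1 0.25/0.25 INSIG1 of 1, beside 82%. SCAP, HMGCS1, IDI1 and SQLE met the criteria in no library.

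Several of these calls lay near a threshold. FDFT1 had a cluster of 9.96 CPM with RNase I 0.1/0.025, just under the limit, and one of 15 reads at 0.733 conversion events per read with RNase T1 1/1, just over it. The RNase T1 1/1 cluster of INSIG1 had 24.2 CPM but only 0.393 conversion events per read, and that of IDI1 had 11.2 CPM at 0.231. At a limit of 5 CPM the members called were 5, 6, 2, 4 and 1 in the order of libraries above, and at 0.75 conversion events per read none was called in any library.

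SREBF2 had 470, 77, 62 and 173 reads in the first 4 libraries, in 27, 8, 8 and 7 clusters. It had no cluster with RNase T1 0.25/0.25. In CPM these levels were 199, 95.8, 92.4 and 149. SREBF2 thus made up 57.5% of the member reads with RNase I 0.05/0.05 (54.0% to 60.8%), 47.5% with RNase I 0.1/0.025, 78.5% with RNase I 0.05/0.025 and 64.8% with RNase T1 1/1. By reads it ranked 1133rd of 8760 genes in the first and 1568th of 7544 in the last of these libraries. Scaled to the cluster reads of RNase T1 0.25/0.25, its 173 reads with RNase T1 1/1 would be 27.3. The 68 reads of its largest cluster there would be 10.7. Scaled likewise, INSIG1 would have 4.41 reads, where its called cluster had 9. These libraries also differ in concentration and gel extraction, and the reason for the missing SREBF2 cluster was not tested.

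The coding sequence held most SREBF2 reads with RNase I. It held 312 of 470 reads (66.4%, 62.0% to 70.5%) with RNase I 0.05/0.05, 47 of 77 (61.0%, 49.9% to 71.2%) with RNase I 0.1/0.025 and 50 of 62 (80.6%, 69.1% to 88.6%) with RNase I 0.05/0.025. With RNase T1 1/1 it held 82 of 173 reads (47.4%, 40.1% to 54.8%), and the 3′UTR held the others. Among genes with at least 20 reads the median share of coding sequence was 6.27% with RNase I 0.05/0.05 and 0 in the other 3 libraries, and 10.8%, 10.7%, 6.62% and 10.9% of those genes had a share as high as SREBF2 or higher. Per kb of sequence, the coding sequence and the 3′UTR of SREBF2 had 91.1 and 95.9 reads with RNase I 0.05/0.05, 13.7 and 18.2 with RNase I 0.1/0.025, 14.6 and 7.28 with RNase I 0.05/0.025, and 24.0 and 55.2 with RNase T1 1/1. The order of the regions per kb thus differed between libraries.

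**Figure D2:**
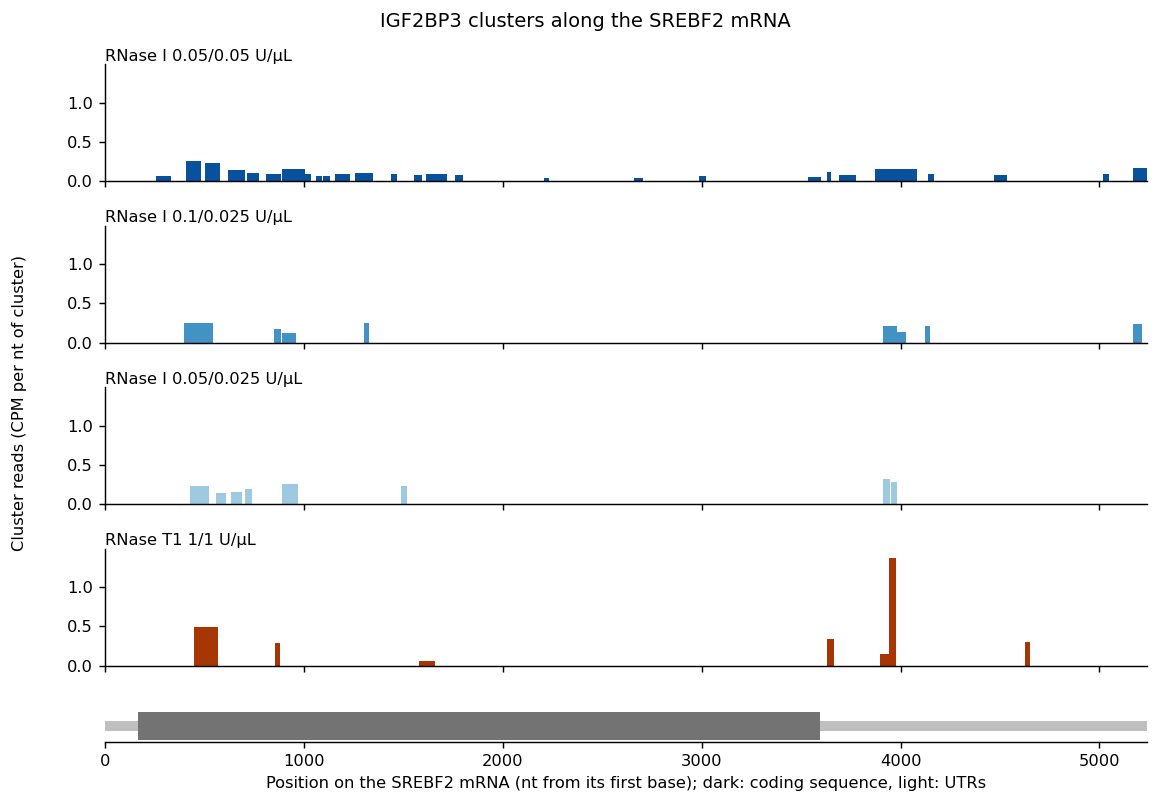
Clusters along the SREBF2 mRNA in 4 IGF2BP3 libraries, drawn over their length with the height in CPM per nt of cluster, above the mRNA with its coding sequence (dark) and UTRs (light). The tallest RNase T1 1/1 cluster, 37 nt in the 3′UTR, reached 1.38 CPM per nt, whereas the RNase I 0.05/0.05 cluster over the same place spread its reads over 211 nt.

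Within the coding sequence the clusters lay toward its start. In RNase I 0.05/0.05, 299 of the 312 coding reads were in clusters centred in the 5′ 50% of the coding sequence (16 of 19 clusters), and in the other 3 libraries all were. The strongest site, chr22:41866970-41867184, covered codons 76 to 148 of 1142 (stop codon included) in exon 2 of 19. It had 86, 30, 20 and 68 reads in the first 4 libraries, that is 36.4, 37.3, 29.8 and 58.8 CPM. Its conversion events per read were 0.500, 0.600, 0.600 and 0.559. A further coding site, at codons 241 to 280, had 42, 7 and 14 reads with the 3 RNase I conditions and no cluster with RNase T1.

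The strongest 3′UTR site of SREBF2, chr22:41905941-41906151, lay 281 to 491 nt after the stop codon. It had 77, 17, 12 and 66 reads in the same 4 libraries, or 32.6, 21.2, 17.9 and 57.0 CPM. With RNase T1 1/1, 59 of the 66 reads fell in a single 37-nt cluster with only 0.305 conversion events per read, where the RNase I 0.05/0.05 cluster had 0.701. That RNase T1 cluster was therefore no target by the conversion criterion, although it had 51.0 CPM. A further site, chr22:41907239-41907305, reached the last base of the canonical 3′UTR and had 27 and 8 reads with RNase I 0.05/0.05 and 0.1/0.025.

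INSIG1, the membrane protein that retains SCAP, had clusters only in its 3′UTR. It had 49, 48, 5, 28 and 9 reads in the 5 libraries, which are 20.7, 59.7, 7.45, 24.2 and 49.3 CPM. It was the only member with a cluster in all 5 IGF2BP3 libraries. RNase I 0.1/0.025 gave 8.01 times the CPM of RNase I 0.05/0.025 (3.21 to 25.8), a pair that by its labels differs in the in-lysate concentration. This ratio rests on 48 reads in 6 clusters against 5 in 1. Only called clusters enter it, and the part of uncalled ones was not tested. Of all genes compared, 0.145% had a ratio as high or higher. An interval above 1 was found for 16.4% of genes and below 1 for 12.2%, and INSIG1 was the only one of 5 members in both libraries whose interval left out 1.

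The INSIG1 site with the most reads over the libraries was chr7:155309411-155309535, 1141 to 1265 nt after the stop codon. It was the only member site found with both RNase T1 conditions. Both RNase T1 clusters, of 29 and 34 nt, ended at the same G at position 155309535 and held all INSIG1 reads of their libraries. With RNase I 0.05/0.05 the site held 22 of 49 reads, and with RNase I 0.1/0.025 it held 14 of 48, with the others spread over 4 and 5 further sites. With RNase I 0.05/0.025 the only INSIG1 cluster lay at another place, 962 to 1022 nt after the stop codon when merged with that of RNase I 0.1/0.025. The modes were 1244 nt after the stop codon with RNase T1 1/1 and 1256 nt with RNase I 0.1/0.025. The CATT shown above lay in that RNase T1 window only, because the RNase I mode was at the edge of its cluster. That RNase I cluster, chr7:155309433-155309526, itself spanned the CATT. So did a 10-read cluster of RNase I 0.05/0.05, chr7:155309482-155309518, with its mode 1236 nt after the stop codon. The windows shown thus do not separate the enzymes at this CATT.

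SCAP, the SREBP escort, had its exon clusters in the coding sequence only, and 1 further cluster of 7 reads with RNase T1 1/1 lay in an intron. Its exons had 57 reads in 7 clusters with RNase I 0.05/0.05, 5 reads in 1 cluster with RNase I 0.1/0.025, 5 in 1 with RNase T1 1/1 and none in the other 2. All clusters were under 10 CPM, and the strongest had 18 reads. The 3′UTR of SCAP is 173 nt long and had no cluster in its canonical transcript. In 5 of the 7 RNase I 0.05/0.05 clusters the coding sequence overlapped an annotated 3′UTR of another SCAP transcript.

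DHCR7, which makes cholesterol from its last precursor, had its reads concentrated in 1 library. It had 141 reads in 10 clusters with RNase I 0.05/0.05, 9 in 2 with RNase I 0.1/0.025, 13 in 2 with RNase T1 1/1 and none in the other 2. In CPM the first 3 values were 59.7, 11.2 and 11.2. With RNase I 0.05/0.05 the clusters covered 56.7% of its 964-nt 3′UTR, and with RNase T1 1/1 they covered 7.05%. The largest cluster, chr11:71435042-71435296, was 255 nt long with 52 reads and began 79 nt after the stop codon. Only 3 reads of RNase I 0.1/0.025 overlapped it. The RNase T1 clusters lay instead near the end of the 3′UTR. A 24-read cluster of RNase I 0.05/0.05 spanned the RNase T1 cluster of 7 reads. A 9-read cluster of RNase I 0.05/0.05 shared only the base chr11:71434445 with the RNase T1 cluster of 6 reads.

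HMGCS1, the synthase at the start of the pathway, had 26, 8, 5 and 5 reads with RNase I 0.05/0.05, 0.1/0.025, 0.05/0.025 and RNase T1 1/1. All lay in its 3661-nt 3′UTR except the 8 reads of RNase I 0.1/0.025, which lay in the coding sequence. No top cluster of HMGCS1 overlapped that of another library. IDI1 had 21, 7, 4 and 13 reads in the same libraries, all in the 3′UTR. Its site chr10:1041038-1041186, which starts at the first base after the stop codon, had 13, 4 and 13 reads with RNase I 0.05/0.05, RNase I 0.05/0.025 and RNase T1 1/1. In each pair of libraries compared for HMGCS1 and IDI1, the interval of the ratio included 1.

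**Figure D3:**
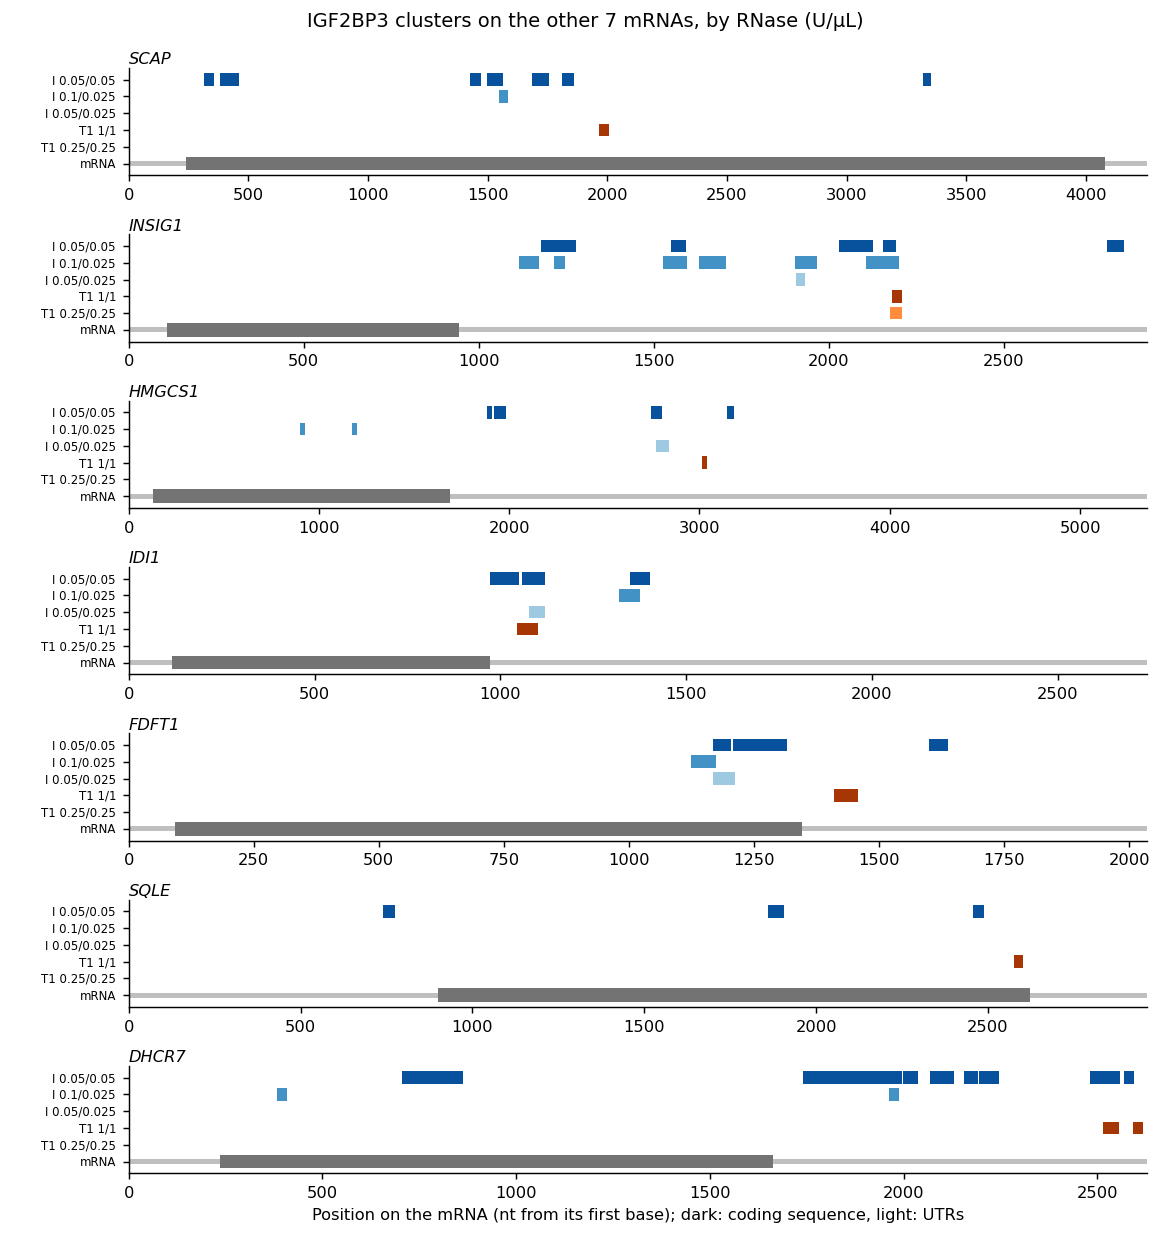
Extent of each cluster on the mRNAs of SCAP, INSIG1, HMGCS1, IDI1, FDFT1, SQLE and DHCR7, with 1 lane per IGF2BP3 library and the mRNA below (coding sequence dark, UTRs light). INSIG1 and IDI1 clusters lay in the 3′UTR in every library with a cluster, SCAP clusters in the coding sequence, and the RNase T1 1/1 cluster of FDFT1 lay downstream of its RNase I 0.1/0.025 and 0.05/0.025 clusters.

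FDFT1 and SQLE, the enzymes that make and oxidise squalene, lie on chromosome 8. FDFT1 had 35, 8, 3 and 15 reads in the first 4 libraries. Its site chr8:11838388-11838544, at codons 345 to 397, had 20, 8 and 3 reads with the RNase I conditions and none with RNase T1. The RNase T1 1/1 cluster, chr8:11838674-11838720, lay in the 3′UTR and overlapped no RNase I cluster. In other FDFT1 transcripts the coding site is annotated as 3′UTR. SQLE had 19 reads with RNase I 0.05/0.05, in the 5′UTR and at 2 places in the coding sequence, and 15 with RNase T1 1/1, of which 7 lay in the coding sequence. The other 8 lay in a cluster, chr8:125020934-125020968, with only 4 of its 35 nt in an exon of a transcript other than the canonical one. No SQLE cluster was shared between libraries.

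The share of member reads in 3′UTRs was below that of all genes, and it was higher without SREBF2. With every transcript considered and 3′UTR before coding sequence, it was 56.7% (53.3% to 60.1%), 62.3%, 36.7% and 66.7% in the first 4 libraries. For all protein-coding genes the values were 86.4%, 88.1%, 87.2% and 90.8%. Without SREBF2 the members had 84.2%, 83.5%, 100% and 92.6%. On the canonical transcripts alone the members had 46.7%, 54.3%, 32.9% and 63.7%, and all genes had 80.7%, 82.2%, 80.8% and 87.6%. On these transcripts the members without SREBF2 had 64.4% (59.2% to 69.2%), 68.2% (57.7% to 77.2%), 82.4% (59.0% to 93.8%) and 86.0% (77.2% to 91.8%), so the share stayed below that of all genes with RNase I 0.05/0.05 and 0.1/0.025, and the last 2 intervals included it. The single cluster of RNase T1 0.25/0.25 lay in a 3′UTR.

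The 114 clusters merged into 72 sites. Of these, 49 were found in 1 library, 23 in at least 2, 7 in at least 3 and 3 in 4, and none was found in 5. Of the 81580 sites of all protein-coding genes, 45.5% were found in at least 2 libraries, 26.3% in at least 3, 15.3% in at least 4 and 6.71% in 5, where the members had 31.9%, 9.72%, 4.17% and 0. The part of read depth per gene in this difference was not tested. The 3 sites in 4 libraries were the coding site and the 3′UTR site of SREBF2 and the 3′UTR site of INSIG1, which together held 449 of the 1335 reads. For 5 of 8 members (SREBF2, SCAP, INSIG1, IDI1 and FDFT1) the top cluster overlapped that of at least 1 other library, as it did for 81.5% of 7891 genes with clusters in at least 2 libraries. With a reciprocal overlap of 50% this held for 2 of 8 and for 63.1% of genes.

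To compare the enzymes, RNase I 0.05/0.05 was set against RNase T1 1/1, both electroeluted, as a ratio of CPM with an exact binomial interval. The libraries had 2362467 and 1157194 cluster reads, and only called clusters enter the sums. The interval does not cover clusters left uncalled at the lower depth, and their part in the ratios was not tested. SCAP had 5.58 times the CPM with RNase I (2.26 to 17.9), DHCR7 5.31 times (3.01 to 10.2) and SREBF2 1.33 times (1.12 to 1.59). These 3 of 8 intervals were above 1, as were 30.5% of those of all 7106 genes with clusters in both libraries, and none was below 1, against 32.2% of all genes. The SCAP ratio rests on 57 reads in 7 clusters against 5 in 1, and that of DHCR7 on 141 in 10 against 13 in 2. For INSIG1 (0.857, 0.528 to 1.42), HMGCS1 (2.55, 0.962 to 8.49), IDI1 (0.791, 0.378 to 1.72), FDFT1 (1.14, 0.608 to 2.25) and SQLE (0.620, 0.299 to 1.31) the interval included 1. The median log2 ratio was 0.30 over the 8 members and -0.05 over all genes. With the largest cluster of each gene in place of the sum, the member median became -0.94.

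Ratios of the other pairs showed that the RNase I libraries differed among themselves. Against RNase T1 1/1, SREBF2 in RNase I 0.1/0.025 was at 0.641 (0.484 to 0.843), on the other side of 1 from its ratio with RNase I 0.05/0.05, and DHCR7 was at 0.997 (0.376 to 2.52). INSIG1 was at 2.47 (1.52 to 4.09). In this pair, which differs in gel extraction as well, 28% of genes had an interval above 1 and 35.1% one below. RNase I 0.05/0.05 gave more CPM than RNase I 0.05/0.025 for SREBF2 (2.15, 1.65 to 2.85), INSIG1 (2.78, 1.11 to 8.95) and FDFT1 (3.31, 1.04 to 16.8), which are 3 of 5 members, beside 32.2% of genes above 1 and 19.8% below. These libraries had 2362467 and 670712 cluster reads, and FDFT1 had 35 reads against 3. Over all genes the median log2 ratio of this pair was 0.18, and 0.01 for genes with at least 20 reads in both. The part of depth in these ratios was not tested. Among the crushed-gel libraries only INSIG1 could be compared with RNase T1 0.25/0.25, at 1.21 (0.588 to 2.81) with RNase I 0.1/0.025 and 0.151 (0.0398 to 0.502) with RNase I 0.05/0.025. In the first of these comparisons 21.8% of genes had an interval above 1 and 20.9% one below, and in the second these were 21.6% and 22.1%.

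**Figure D4:**
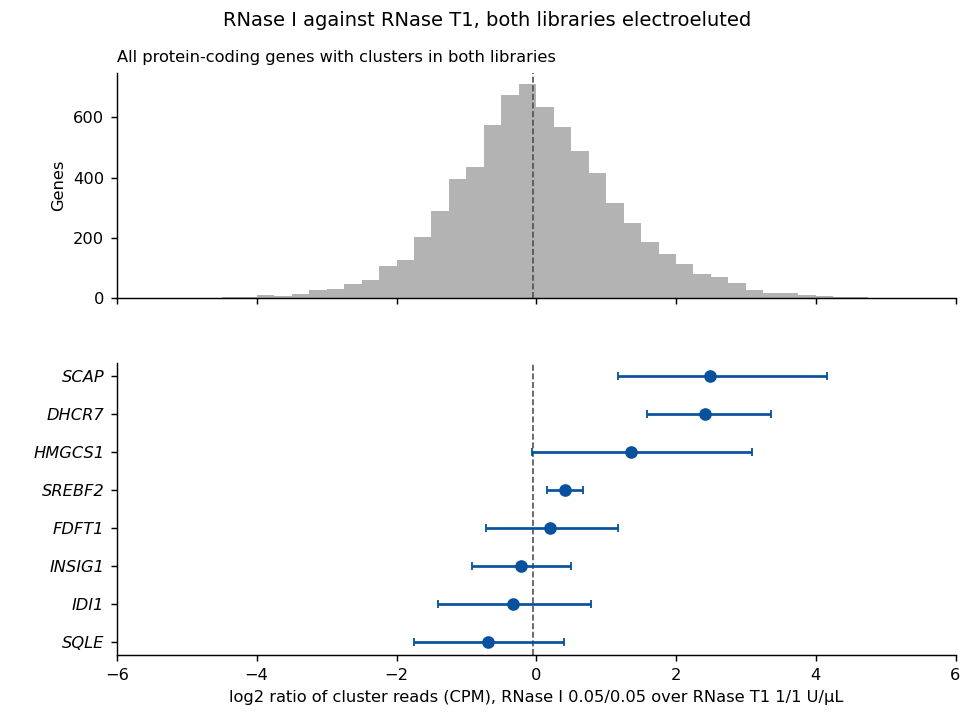
Log2 ratio of cluster reads in CPM between RNase I 0.05/0.05 and RNase T1 1/1, as a histogram of 7106 protein-coding genes (top) and for the 8 members with exact 95% binomial intervals (bottom), with the median of all genes as a dashed line. SCAP, DHCR7 and SREBF2 have intervals to the right of 0, and the other 5 intervals include 0.

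The footprints differed in extent and ends. Clusters covered more of the mRNA with RNase I 0.05/0.05 than with RNase T1 1/1 in 8 of 8 members, as they did in 95.8% of 6949 genes. The RNase I library of this pair had 2362467 cluster reads against 1157194. With RNase I 0.1/0.025 (803490 cluster reads) in place of RNase I 0.05/0.05, they covered more in 4 of 7 members and in 71.3% of 5657 genes. SREBF2 was covered over 32.7% of its mRNA with RNase I 0.05/0.05, 8.94% with RNase I 0.1/0.025 and 7.07% with RNase T1 1/1. All 16 member clusters of RNase T1 1/1 ended in G, the base after which this enzyme cuts, where 94.8% of clusters on all genes did. With RNase I, 7 of 64, 1 of 21 and 1 of 12 member clusters ended in G. Conversion events per read of the members were 0.628, 0.698 and 0.582 with the 3 RNase I conditions and 0.491 and 0.556 with RNase T1 1/1 and 0.25/0.25, and those of all genes were 0.638, 0.651, 0.608, 0.512 and 0.552.

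In windows of 30 nt around the mode, CATT was present in 13 of 64 member clusters with RNase I 0.05/0.05 (20.3%, 12.3% to 31.7%), beside 14.5% of all 73961 clusters on protein-coding exons. With RNase T1 1/1 it was present in 3 of 16 (18.8%, 6.59% to 43.0%), beside 23.3%. GGAC was present in 9 of 64 windows with RNase I 0.05/0.05 (14.1%, 7.58% to 24.6%), beside 7.76%, and in 0 of 16 with RNase T1 1/1, beside 5.74%. CAGT was present in 11 of 64 and 3 of 16, beside 14.0% and 13.7%. These intervals for the members included the share of all clusters. CATA, in 1 of 64 windows with RNase I 0.05/0.05 (1.56%, 0.276% to 8.33%), was below the 8.93% of all clusters there. It was present in 3 of 21 windows with RNase I 0.1/0.025 (14.3%) and in 1 of 12 with RNase I 0.05/0.025 (8.33%), beside 9.89% and 9.47% of all, and in 1 of 16 with RNase T1 1/1 its interval (1.11% to 28.3%) included the 13.7% of all.

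Of 26 other genes of sterol metabolism, 21, 15, 17, 19 and 7 had a cluster in the 5 IGF2BP3 libraries, and 12, 11, 11, 13 and 6 of these met the target criteria, beside 50.1%, 66.5%, 72.6%, 52.2% and 82% of all genes with a cluster. None had an IgG cluster. Of the 16 listed under sterol and isoprenoid synthesis, 6 of 11 with a cluster were targets with RNase I 0.05/0.05 and 7 of 10 with RNase T1 1/1. Of the 6 listed under sterol sensing, sterol transport or SREBP processing, 4 of 6 and 4 of 5 were. Of the 4 listed under uptake and release of lipoprotein cholesterol, 2 of 4 were in both libraries.

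SC5D, SREBF1 and MBTPS2 are given as examples with many reads. SC5D, a sterol desaturase, had 298, 80, 58, 492 and 7 reads in the 5 libraries. MBTPS2, a protease that cleaves SREBP, had 253, 72, 41, 141 and 19. SREBF1, the paralog of SREBF2, had 290, 59, 35 and 34 reads and no cluster with RNase T1 0.25/0.25.

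SREBF1, like SREBF2 in the RNase I libraries, had most of its reads in the coding sequence. The coding sequence held 220 of its 290 reads with RNase I 0.05/0.05 (75.9%, 70.6% to 80.4%), 54 of 59 with RNase I 0.1/0.025 (91.5%), 35 of 35 with RNase I 0.05/0.025 and 26 of 34 with RNase T1 1/1 (76.5%, 60.0% to 87.6%). SC5D and MBTPS2 had 20.5% and 10.9% of their reads on the canonical transcript in the coding sequence with RNase I 0.05/0.05.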

How the data were processed

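IR-PAR-CLIP clusters of HCT116 cells were analysed in 5 IGF2BP3 libraries and 1 IgG library, 1 per condition. The authors removed duplicates by molecular identifiers with UMI-tools 1.1.1, trimmed with Trimmomatic 0.30 (length 18 to 45 nt), mapped to GRCh38 by Bowtie 0.12.7 allowing 3 mismatches, and called clusters in each library with PARalyzer. The deposited values are raw counts for each cluster, namely its reads, its conversion events and its non-conversion events. The deposited mode score, a fraction, was not used.

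Clusters were assigned to GENCODE release 44 exons with bedtools 2.31.1, and values were computed in Python 3.11.15 (pandas 2.3.3, numpy 2.4.6, scipy 1.17.1) with matplotlib 3.10.9 for the plots. All 201443 cluster sequences on protein-coding exons matched GRCh38. CPM refers to cluster reads, which are not the library size. The canonical transcript gave positions, codons and coding shares. Shares have Wilson 95% intervals and read ratios exact binomial ones. In simulated data 200 of 200 planted targets and 0 of 200 non-targets were called. The members and gene lists were chosen with earlier results of these data known. All members were named. The rule also named the 4 other pathway genes with the most reads in RNase I 0.05/0.05, of which 1 is not reported here. No member cluster overlapped another gene on its strand, and none of 3 pseudogenes named after members had a cluster. Alternatives changed the criteria, the annotation, the denominator, the conversion measure and the overlap. Input RNA was not used here.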

Additional observations from a re-analysis of the deposited data

Results flagged for a closer look

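SCAP had 1 cluster outside its exons, in an intron at chr3:47471313-47471342, with 7 reads, 6.05 CPM and 0.571 conversion events per read in RNase T1 1/1. It was singled out because intronic clusters enter none of the comparisons above, and the IgG library had no cluster on the 8 genes. The intron cluster had more reads than the only SCAP exon cluster of that library, which had 5. None of the other 7 genes had a cluster wholly outside its exons in any of the 6 libraries. The SQLE cluster chr8:125020934-125020968, with 8 reads in RNase T1 1/1, counted as exonic through only 4 of its 35 nt.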

How the results depend on the processing

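With 1 library per condition, no value has a replicate error. No paired analysis was possible because each condition has 1 library. The smallest clusters had 2 reads, and 10 CPM corresponds to 23.6 reads with RNase I 0.05/0.05 and to 1.82 with RNase T1 0.25/0.25, so the target criterion asks for different read numbers in each library. Of 84 alternative values, 48 stayed within 1.5 times the count or within the counting interval and 36 moved. Some of the 48 could not move. Among these are the counts without clusters on other genes, and the 3′UTR share by clusters in RNase T1 0.25/0.25, which has 1 member cluster.

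Libraries are given in the order RNase I 0.05/0.05, 0.1/0.025, 0.05/0.025, RNase T1 1/1, 0.25/0.25. Members called were 2, 2, 1, 2 and 1, and became 5, 6, 2, 4 and 1 at 5 CPM, 2, 1, 1, 1 and 1 at 20 CPM, 0 in all 5 at 0.75 conversion events per read, and 2, 1, 0, 1 and 0 with at least 20 reads per cluster. The canonical transcript and a 50% exon overlap moved none of these counts. Leaving out clusters on other genes could not move them, because no member cluster overlapped another gene on its strand. The 3′UTR share moved to 39.4% and 54.3% in the first 2 libraries with coding sequence first, to 46.7% and 54.3% there on canonical transcripts, and to 62.5%, 50% and 75% in RNase I 0.05/0.05, RNase I 0.05/0.025 and RNase T1 1/1 by clusters. Without SREBF2, a choice made after seeing the data, it was 84.2%, 83.5%, 100% and 92.6% in the first 4. With the largest cluster only, the median log2 ratio changed sign from 0.30 to -0.94 for RNase I 0.05/0.05 over RNase T1 1/1, and from 0.28 to -1.50 for RNase I 0.1/0.025 over RNase T1 0.25/0.25, which rests on INSIG1 alone. Conversion events per read had a median over clusters of 0.679 in RNase I 0.05/0.05. Divided by conversion plus non-conversion events they were 0.0923, 0.0939, 0.0977, 0.0503 and 0.0342, another scale. The members with a shared top site fell from 5 to 2 of 8 with 50% reciprocal overlap, and were 2 of 3 when only clusters of at least 10 reads were ranked by reads per nt. The cause of these changes was not tested.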
